A study of Mus musculus with 6 samples.

Results

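The genes described here are the 10 mouse genes through which a cell makes, stores and takes back serotonin, chosen by symbol: Tph1, Tph2, Ddc, Slc18a1, Slc18a2, Slc6a4, Gch1, Pts, Spr and Qdpr. All 10 were found among the 19940 genes of the authors' deposited table, and all 10 averaged 10 reads or more. RNA was sequenced from hand-picked pancreatic islets, the small clusters of endocrine cells in the pancreas, of C57BL6/J mice. Islets of pregnant mice at gestational day 14.5 (3 samples) were set against islets of nonpregnant mice that the labels call littermates (3 samples). Both groups were untreated as far as the labels say, and the design text names 5 animals per group against the 3 samples per group used here. The table holds 1 authors' mean per group and the authors' own test, so no value per sample and no spread between samples can be given. The authors' mean reads summed to 87654449 in pregnant and 84493872 in nonpregnant islets. Whole islets mix several cell types, so more cells of a type and more RNA per cell cannot be told apart.

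Serotonin is made from the amino acid tryptophan. A tryptophan hydroxylase adds a hydroxyl group with the help of the cofactor tetrahydrobiopterin, and an aromatic amino acid decarboxylase then removes the carboxyl group. Vesicular transporters load the product into granules, and a plasma membrane transporter takes it back up after release. In mice, beta cells are known to make serotonin during pregnancy under the control of lactogenic hormones acting through the prolactin receptor, and serotonin released from beta cells is known to act on receptors of the same islets.

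In pregnant islets both tryptophan hydroxylase genes, the decarboxylase gene Ddc and the vesicular transporter gene Slc18a1 rose. Tph1 rose 1848-fold, Tph2 8.95-fold, Slc18a1 1.72-fold and Ddc 1.25-fold in the authors' deposited table. The genes that make and regenerate the cofactor (Gch1, Pts, Spr and Qdpr), the second vesicular transporter gene Slc18a2 and the reuptake transporter gene Slc6a4 did not pass the test. At an adjusted p below 0.05 in the table deposited by the authors, 4 of the 10 genes were higher, where 7.57% of all 19940 genes were. None of the 10 was lower (0 of 10) by the same threshold of the authors' test, where 4.15% of all genes were. These shares also cover genes with few reads. Of the 19940 genes, 15682 had at least 10 mean reads, as all 10 of these genes did, and the share among those is not given. At an unadjusted p under 0.05 in the authors' deposited table, 5 of the 10 were higher, where 12.4% of all genes were, and 1 of the 10 was lower, where 9.78% of all genes were. The median log2 ratio of pregnant over nonpregnant was 0.29 over the 10 genes and -0.02 over all genes of the authors' deposited table. The 4 risen genes lie on different chromosomes, and the 10 genes lie on 9.

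The 300-base windows around the annotated starts of Tph1 and Tph2 are shown because these genes had the largest rises among the 4 that passed the test. The windows are from RefSeq on GRCm38.p6 and run from 250 bases before to 50 bases after a start. Of the 10 genes, 9 had such a window, with 11 windows in all. Tph1 had 2 starts on the minus strand of chromosome 7. The upstream window is chr7:46672488-46672787 and the downstream window is chr7:46667328-46667627. The Tph2 window is chr10:115184973-115185272 on the minus strand. Each start is that of an annotated GENCODE M21 transcript. Each window is written 5′ to 3′ along the gene, with capitals marking TGACG (the core of a cyclic AMP response element, found on either strand, so also as CGTCA) and TATAAA (the TATA box).
Tph1, downstream start: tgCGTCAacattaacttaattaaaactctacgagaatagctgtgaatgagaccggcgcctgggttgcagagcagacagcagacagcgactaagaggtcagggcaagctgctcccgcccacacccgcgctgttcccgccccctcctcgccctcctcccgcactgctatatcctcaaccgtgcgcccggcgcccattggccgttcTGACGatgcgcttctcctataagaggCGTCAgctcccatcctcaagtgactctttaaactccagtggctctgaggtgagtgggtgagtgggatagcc
Tph1, upstream start: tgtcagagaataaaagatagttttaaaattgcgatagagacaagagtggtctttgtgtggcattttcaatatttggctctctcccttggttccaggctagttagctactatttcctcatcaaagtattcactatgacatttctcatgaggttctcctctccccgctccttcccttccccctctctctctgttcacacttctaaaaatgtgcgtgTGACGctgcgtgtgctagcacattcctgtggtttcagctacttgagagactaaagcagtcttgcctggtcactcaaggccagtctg
Tph2: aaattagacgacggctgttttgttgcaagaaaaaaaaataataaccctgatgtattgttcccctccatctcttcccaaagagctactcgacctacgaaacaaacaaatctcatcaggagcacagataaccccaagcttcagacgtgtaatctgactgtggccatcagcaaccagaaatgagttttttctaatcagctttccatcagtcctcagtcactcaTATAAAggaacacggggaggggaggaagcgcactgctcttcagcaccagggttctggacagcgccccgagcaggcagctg

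The letters TGACG occurred 3 times in the downstream Tph1 window and once in the upstream one. At least 1 copy was found in 20.8% of 32851 windows of the same length, and at least 3 copies in 1.03%. TATAAA stood at base 221 of the Tph2 window, 30 bases before the start, and in 13.6% of all windows. The STAT element TTCNNNGAA, which reads the same on both strands, was in none of the 11 windows of these genes (0 of 11) and in 8.3% of all windows. The E-box CANNTG, also the same on both strands, was in 72.3% of all windows and stood once in the downstream Tph1 window and once in the Tph2 window. The downstream Tph1 window had a GC content of 58% with 19 CG pairs, and the upstream one 45% with 5, where the median window had 52.7% with 7. A mean per gene does not say which Tph1 start was used. These matches are a description of letters and do not show binding.

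Tph1 (ENSMUSG00000040046), the rate-limiting hydroxylase of peripheral tissues, had an authors' mean of 22212 reads in pregnant islets and 11 reads in nonpregnant islets. This was the largest log2 ratio of all genes in the authors' deposited table, at 10.85, with p listed as 0. It was the only gene of the authors' deposited table with a p listed as 0. The next largest log2 ratio among genes past the threshold was that of the claudin gene Cldn8, which the authors' deposited table gives as 8.29. The small nonpregnant mean limits how precisely the size of the rise is known. The plain ratio of the 2 authors' means was 2019, and rounding of those means to whole reads alone allows 1931 to 2115. The deposited log2 ratio lay within rounding of means with 1 read added in 100% of 2531 genes with low means, and in 92.5% with none added, so the deposited fold is smaller than the plain ratio. Tph1 spans bases 46644641 to 46672537 of the minus strand of chromosome 7 (GRCm38).

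Tph2 (ENSMUSG00000006764), the hydroxylase known from serotonin neurons of the brain, had an authors' mean of 2583 reads in pregnant islets and 295 reads in nonpregnant islets. Its log2 ratio was 3.16 in the authors' deposited table (adjusted p = 2.06e-12 by the authors' test across all genes). It ranked 105 by log2 ratio among the 15682 genes with at least 10 mean reads, where Tph1 ranked 1. Tph2 spans bases 115078641 to 115185022 of chromosome 10, also on the minus strand. The annotated transcripts of Tph1 and Tph2 in GENCODE M21 shared no exact run longer than 15 bases.

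Levels of different genes were compared per kilobase of annotated exon. On that scale Tph1 was at 3599 mean reads per kilobase in pregnant islets and 1.78 in nonpregnant islets, and Tph2 at 897 in pregnant and 102 in nonpregnant islets. The order of the hydroxylases was thus opposite in the groups. Tph1 made up 80.0% of the summed hydroxylase level per kilobase in pregnant islets and 1.71% in nonpregnant islets. In pregnant islets the Tph1 level was 4.01 times that of Tph2 per kilobase, and in nonpregnant islets the Tph2 level was 57.5 times that of Tph1. The summed level of both genes per kilobase was 4496 in pregnant and 104 in nonpregnant islets, a ratio of 43.1. These ratios come from 1 mean per group and carry no error. By reads per kilobase Tph1 ranked 762 in pregnant islets and 16549 in nonpregnant islets among 19265 genes with an annotated length.

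**Figure D1:**
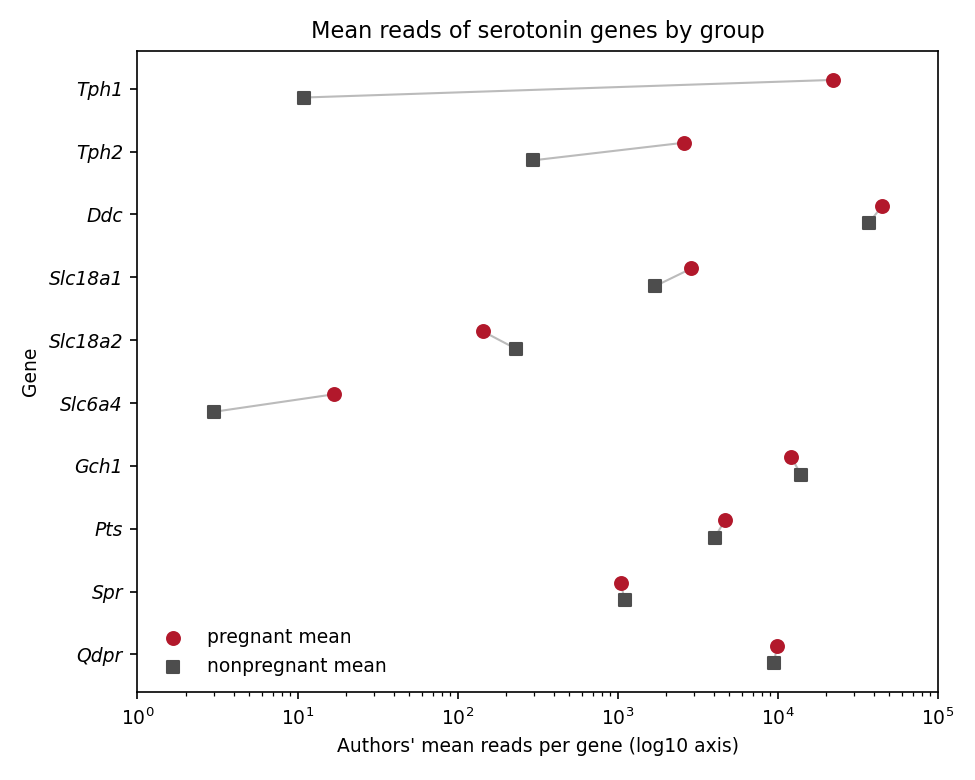
Authors' mean reads per gene on a log10 axis for the 10 serotonin genes, with red circles for the mean of pregnant islets, grey squares for the mean of nonpregnant islets and a line joining them; there is 1 mean per group and no error bar. Tph1 has its circle at 22212 reads and its square at 11, and the 4 cofactor genes at the bottom have nearly overlying symbols.

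Ddc (ENSMUSG00000020182) encodes the aromatic amino acid decarboxylase, which turns 5-hydroxytryptophan into serotonin and also DOPA into dopamine. It had an authors' mean of 45234 reads in pregnant islets and 37035 reads in nonpregnant islets. The rise was small, with a log2 ratio of 0.32 by the authors' deposited table (adjusted p = 0.0194), and would not pass a threshold of 0.01, under which 5.12% of all genes were higher. Ddc was the most abundant of the 10 genes in both groups, at 10140 mean reads per kilobase in pregnant and 8302 in nonpregnant islets. Its level per kilobase was 2.26 times the summed level of the hydroxylases in pregnant islets and 79.6 times in nonpregnant islets. Both ratios depend on the length used, since Ddc has 4461 bases of annotated exon but 2018 in its longest transcript. With that length Ddc was at 22415 in pregnant and 18352 in nonpregnant islets. Tph1 was then at 4869 in pregnant and 2.41 in nonpregnant islets, and Tph2 at 984 and 112, so both ratios would be larger. Ddc was therefore abundant in both groups, whereas the level of the hydroxylase step differed by a far larger factor. Ddc spans bases 11814101 to 11898144 of chromosome 11 on the minus strand.

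Slc18a1 (ENSMUSG00000036330), the vesicular monoamine transporter known as VMAT1 from endocrine cells, had an authors' mean of 2892 reads in pregnant islets and 1718 reads in nonpregnant islets. Its log2 ratio was 0.79 in the authors' deposited table (adjusted p = 3.14e-10). Slc18a2 (ENSMUSG00000025094), the neuronal form VMAT2, had an authors' mean of 144 reads in pregnant islets and 233 reads in nonpregnant islets. With a log2 ratio of -0.66 in the authors' deposited table it stood on the other side of 0 and did not pass (p = 0.0353, adjusted p = 0.18). Per kilobase, Slc18a1 was at 535 in pregnant and 318 in nonpregnant islets, and Slc18a2 at 27.6 in pregnant and 44.6 in nonpregnant islets. Slc18a1 made up 95.1% of the summed level of both transporters in pregnant and 87.7% in nonpregnant islets. Whether the responses of the transporters differ was not tested, since that needs values per sample. Their annotated transcripts shared no exact run longer than 15 bases.

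Slc6a4 (ENSMUSG00000020838), the plasma membrane transporter that takes serotonin back up and the target of selective reuptake inhibitors, was the least abundant of the 10 genes in both groups. It had an authors' mean of 17 reads in pregnant islets and 3 reads in nonpregnant islets. Its fold, which the authors' deposited table gives as 5.1, did not pass (p = 0.0517, adjusted p = 0.231), and rounding of the means alone allows a ratio of 4.71 to 7. Its level per kilobase was 3.75 in pregnant and 0.662 in nonpregnant islets. At this depth a difference in Slc6a4 could not be told from the spread behind the authors' test.

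**Figure D2:**
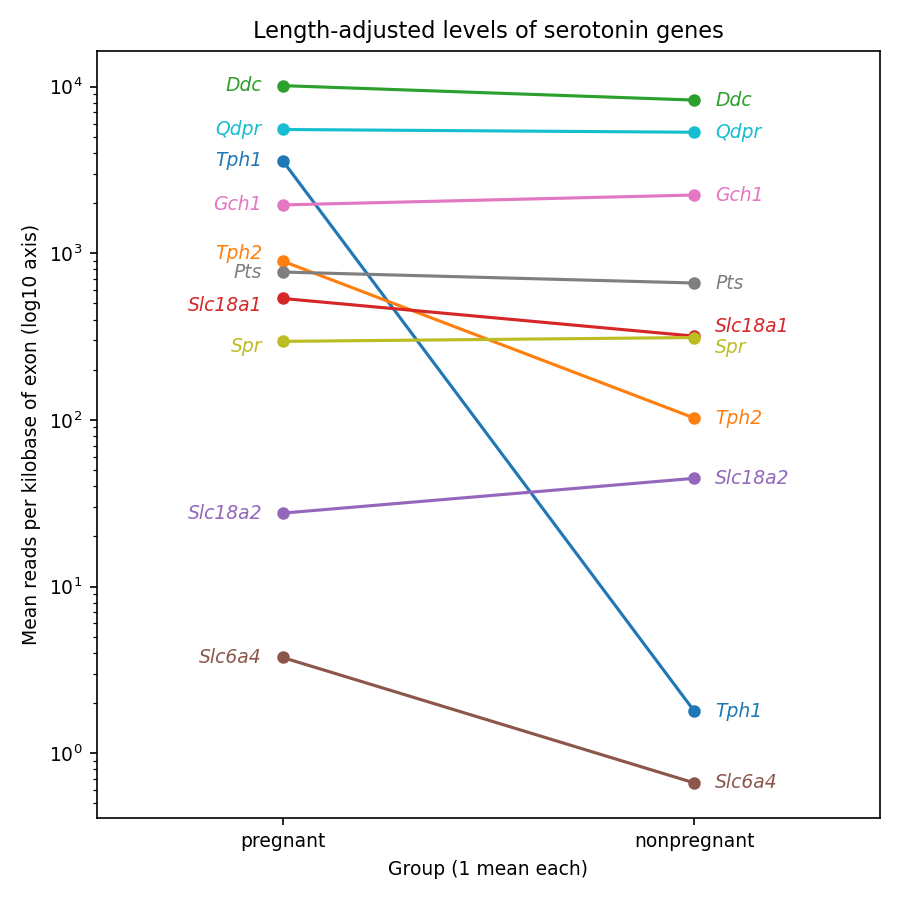
Mean reads per kilobase of annotated exon on a log10 axis for each of the 10 genes, pregnant islets on the left and nonpregnant islets on the right, with 1 mean per group and no error. The Tph1 line crosses 6 others, with Tph1 at place 3 of 10 in pregnant islets and place 9 in nonpregnant islets, while Ddc and Qdpr hold places 1 and 2 in both.

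The 4 cofactor genes were expressed in both groups with ratios near 1. Gch1 encodes GTP cyclohydrolase, the first enzyme of tetrahydrobiopterin synthesis, and had an authors' mean of 12189 reads in pregnant and 13978 reads in nonpregnant islets. Pts encodes the next enzyme, 6-pyruvoyl-tetrahydropterin synthase, and had an authors' mean of 4706 reads in pregnant and 4044 reads in nonpregnant islets. Spr encodes sepiapterin reductase, which completes the synthesis, and had an authors' mean of 1049 reads in pregnant and 1106 reads in nonpregnant islets. Qdpr encodes dihydropteridine reductase, which restores the cofactor after each hydroxylation, and had an authors' mean of 9888 reads in pregnant and 9518 reads in nonpregnant islets. Their folds in the authors' deposited table were 0.89, 1.19, 0.97 and 1.07 in that order, and none passed, with adjusted p-values of 0.376, 0.11, 0.98 and 0.752. Pts alone of these had an unadjusted p under 0.05 in the authors' deposited table, at 0.0176. The summed authors' mean of the 4 genes was 27832 reads in pregnant and 28646 reads in nonpregnant islets. A p that misses the threshold does not show that these genes were equal between the groups.

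The place of Tph1 among the 10 genes by reads per kilobase was 3 in pregnant islets, after Ddc and Qdpr, and 9 in nonpregnant islets, before Slc6a4. Gch1 stood at place 4 in pregnant and 3 in nonpregnant islets. Without Tph1, the summed authors' mean of the other 9 genes was 78702 reads in pregnant and 67930 reads in nonpregnant islets, and with it 100914 in pregnant and 67941 in nonpregnant islets. No error can be attached to these places, so neighbours in the order such as Tph2 (897) and Pts (771 per kilobase) in pregnant islets, or Slc18a1 (318) and Spr (312 per kilobase) in nonpregnant islets, are not shown to differ.

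**Figure D3:**
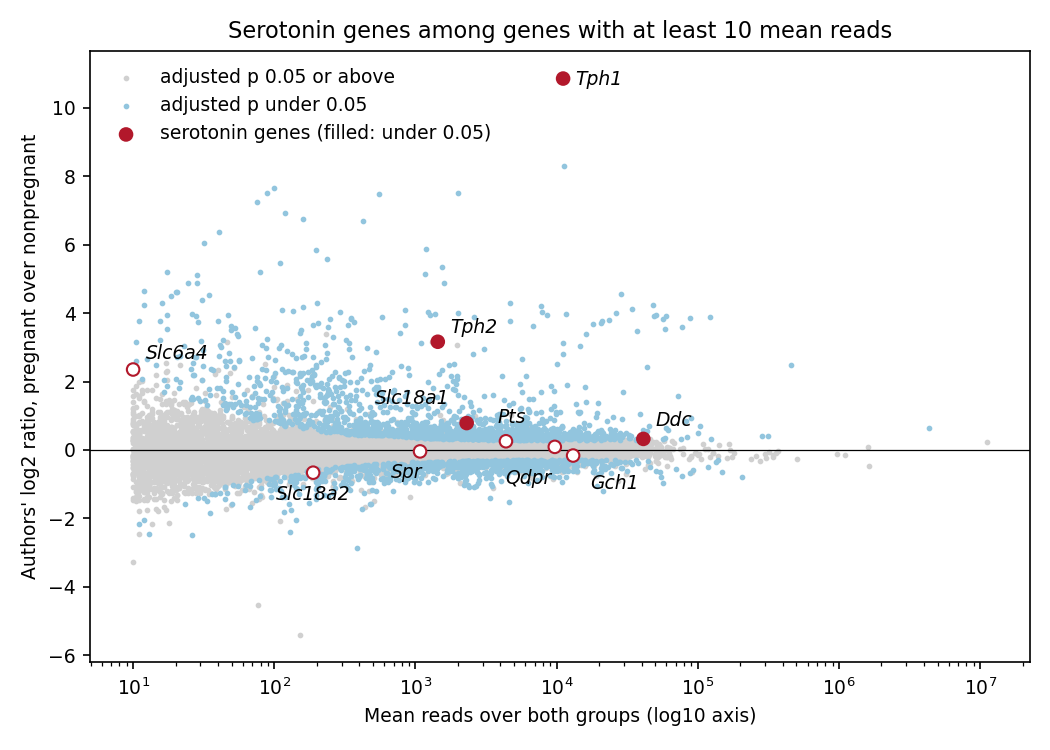
Authors' log2 ratio of pregnant over nonpregnant islets against mean reads over both groups (log10 axis) for 15682 genes with at least 10 mean reads, light blue where the authors' adjusted p is under 0.05 and grey otherwise; red circles are the 10 serotonin genes, filled where they passed. Tph1 lies above every other gene at 10.85, Tph2 at 3.16, and the cofactor genes lie near 0.

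Genes beside the risen members were examined for changes in the same stretch of chromosome. For comparison, 7.57% of all genes were higher and 4.15% lower at the authors' adjusted p below 0.05. Whether neighbours changed together with the members was not tested. Within 100 kb of Tph1, 5 other genes were in the table and 1 of them rose, Saal1, for which the authors' deposited table gave a fold of 1.5 (adjusted p = 0.000397). The closest neighbour of Tph1, Sergef, 4834 bases away, had an authors' mean of 420 reads in pregnant and 409 reads in nonpregnant islets. Of 4 neighbours of Ddc, 1 rose: Fignl1, which encodes an ATPase of homologous recombination, with an authors' mean of 274 reads in pregnant and 68 reads in nonpregnant islets, and a fold of 4.09 by the authors' deposited table (adjusted p = 2.65e-17). Grb10, the imprinted growth regulator next to Ddc, had an authors' mean of 5217 reads in pregnant and 6319 reads in nonpregnant islets, with an adjusted p of 0.427 by the authors' deposited table. None of 3 neighbours of Slc18a1 (0 of 3) and of 1 neighbour of Tph2 passed in the authors' deposited table. Of the 4 risen genes, Tph1 and Tph2 overlap no annotated gene. Ddc and Slc18a1 overlap genes on the opposite strand with which they share 0 exonic bases. Slc18a2 and Qdpr share 111 and 332 exonic bases with antisense genes, so reads of either could come from the partner if strand was not used in counting.

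Beyond the 10 genes, 10 lists of genes around serotonin were examined, with 66 of 71 listed genes in the table. Of these 66, the authors' deposited table had 2 higher (3.03%) and 3 lower (4.55%) at an adjusted p below 0.05, where 7.57% of all genes were higher and 4.15% lower. The share of higher calls was below that of all genes and the share of lower calls near it, so the counts are no result about the lists. At an adjusted p below 0.01 in the authors' deposited table, 1 of the 66 was higher and 1 lower, where 5.12% of all genes were higher and 2.19% lower. Among 6 further genes of the cofactor, 2 were higher and 0 lower (4 higher and 0 lower at an unadjusted p under 0.05 in the authors' deposited table), with a median log2 ratio of 0.28. Over all genes, 12.4% were higher and 9.78% lower at that unadjusted threshold. For the reductase genes Akr1c13 and Akr1b3, which rose, the authors' deposited table gave folds of 1.37 and 1.23 with adjusted p-values of 0.00764 and 0.0498. Gchfr, the feedback regulator of GTP cyclohydrolase, had an authors' mean of 15 reads in pregnant and 26 reads in nonpregnant islets, with an adjusted p of 0.569 by the authors' deposited table. Pcbd1, the carbinolamine dehydratase that recycles the cofactor, had an authors' mean of 5832 reads in pregnant and 5492 reads in nonpregnant islets (adjusted p = 0.6 in the authors' deposited table).

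The supply of vitamin B6, the coenzyme of the decarboxylase, showed 0 higher and 1 lower of 3 genes (0 higher and 1 lower at an unadjusted p under 0.05). Pdxk, the pyridoxal kinase that activates the vitamin, fell to an authors' mean of 2508 reads in pregnant islets against 3545 in nonpregnant islets, a fold of 0.72 by the authors' deposited table (adjusted p = 0.000589). Among 7 carriers of tryptophan and other large neutral amino acids, 0 were higher and 1 was lower (0 and 2 at an unadjusted p under 0.05). Slc6a19, a sodium-dependent neutral amino acid carrier best known from gut and kidney, fell as well, with a fold of 0.72 by the authors' deposited table (adjusted p = 0.0388). The aromatic amino acid carrier gene Slc16a10 had an authors' mean of 32544 reads in pregnant and 37225 reads in nonpregnant islets, and the light chain gene Slc7a8 24283 in pregnant and 23188 in nonpregnant islets, with adjusted p-values of 0.552 and 0.686 by the authors' deposited table.

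None of 10 measured genes of tryptophan breakdown passed in the authors' deposited table (0 of 10, and 0 at an unadjusted p under 0.05). Tdo2, which opens the competing kynurenine route, had an authors' mean of 138 reads in pregnant and 154 reads in nonpregnant islets, and Ido1, the inducible enzyme of the same step, 3 in pregnant and 0 in nonpregnant islets. Of 5 genes that modify serotonin, 0 passed in the authors' deposited table and 0 reached an unadjusted p under 0.05. Maob, a monoamine oxidase, had an authors' mean of 19812 reads in pregnant and 21758 reads in nonpregnant islets, and Maoa 1322 in pregnant and 1281 in nonpregnant islets. Of 12 serotonin receptor genes 0 passed in the authors' deposited table, 1 was higher at an unadjusted p under 0.05, and only 3 had at least 10 mean reads. Htr1d had an authors' mean of 25 reads in pregnant and 9 reads in nonpregnant islets (adjusted p = 0.125 by the authors' deposited table), and Htr3a 31 reads in pregnant and 78 in nonpregnant islets (adjusted p = 0.632 by the same table of the authors).

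Of 3 genes of the related catecholamine and histamine pathways, 0 passed in the authors' deposited table and 1 was higher at an unadjusted p under 0.05. Hdc, the histidine decarboxylase that makes histamine, had an authors' mean of 214 reads in pregnant and 147 reads in nonpregnant islets, with an adjusted p of 0.053 by the authors' deposited table. When p-values were adjusted again for the 15682 genes averaging 10 reads or more, Hdc had an adjusted p of 0.0419, so its call turns on that filter. Th, the tyrosine hydroxylase that uses the same cofactor, had an authors' mean of 2544 reads in pregnant and 2446 reads in nonpregnant islets, with an adjusted p of 0.868 by the authors' deposited table. The other monoamine carriers had 0 of 5 past the threshold in the authors' deposited table and 0 at an unadjusted p under 0.05.

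The 14-3-3 adaptor proteins, known to bind phosphorylated tryptophan hydroxylase, had 0 of 7 genes past the threshold in the authors' deposited table, 0 at an unadjusted p under 0.05, and log2 ratios between -0.09 and 0.25. Among 8 transcription factors known from serotonin neurons, 0 were higher and 1 was lower (0 and 1 at an unadjusted p under 0.05). Foxa2 fell, with a fold of 0.8 by the authors' deposited table (adjusted p = 0.0245). Fev, which drives the serotonin genes of the brain in mice, had an authors' mean of 608 reads in pregnant and 667 reads in nonpregnant islets, and Lmx1b 1253 in pregnant and 1312 in nonpregnant islets, with adjusted p-values of 0.943 and 0.987 by the authors' deposited table.

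**Figure D4:**
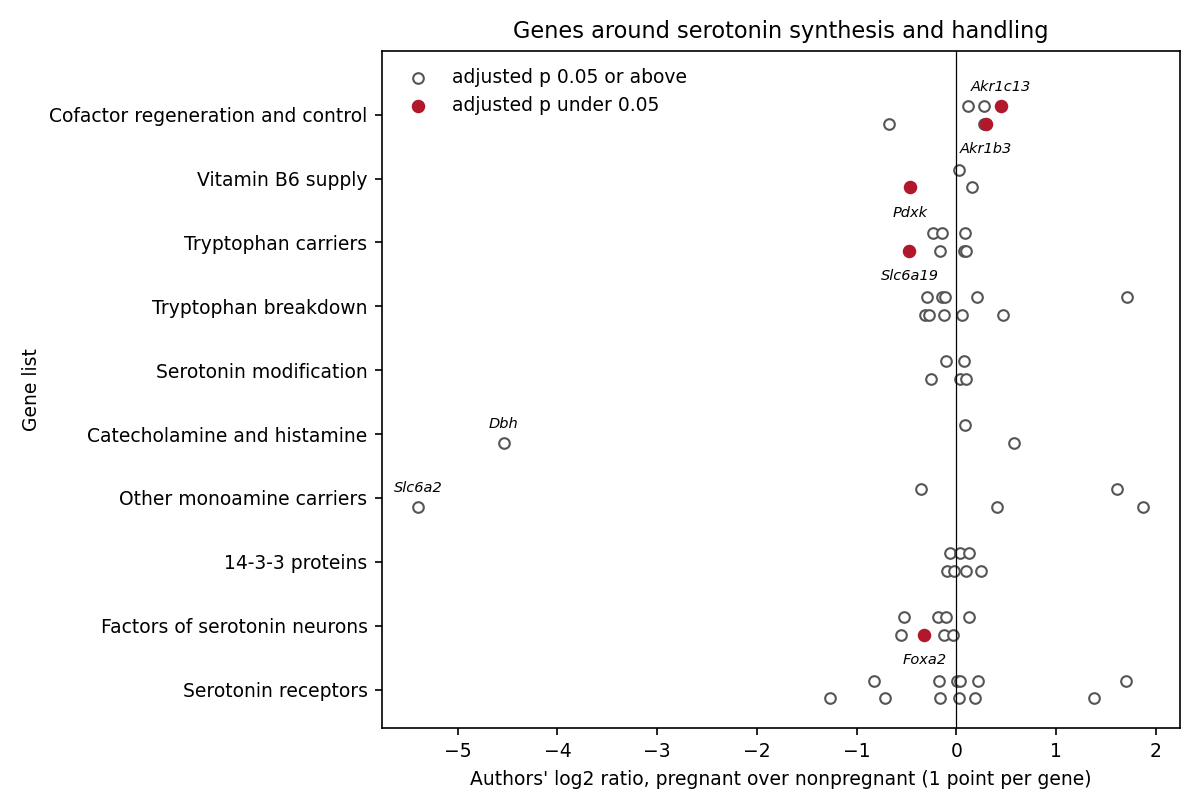
Authors' log2 ratio of pregnant over nonpregnant islets, 1 point per gene, for 10 lists of genes around serotonin; filled red points are genes with an authors' adjusted p under 0.05 and are named, open points did not pass. Most points lie near 0, with 2 filled points to the right and 3 to the left of it, and the open points Dbh and Slc6a2 lie far to the left.

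Markers of the islet and of other cell types that hold serotonin were summed in the same table. Beside the counts below, 7.57% of all genes were higher and 4.15% lower at the authors' adjusted p below 0.05. Beta cell markers made up 21.7% of all authors' mean reads in pregnant and 18.5% in nonpregnant islets, led by Ins2 and Ins1, the insulin genes. Of 8 beta cell markers, only Ins1 passed in the authors' deposited table, with a fold of 1.55, and the median log2 ratio was 0.05. For the beta cell genes Slc2a2, Ucn3 and Nkx6-1, none of which passed, the authors' deposited table gave log2 ratios of -0.26, -0.14 and -0.06. Ins2, Pdx1, Iapp and Mafa, which did not pass either, stood on the other side of 0, at 0.24, 0.19, 0.08 and 0.02. Alpha cell markers made up 1.61% of all authors' mean reads in pregnant and 2.40% in nonpregnant islets, and 2 of 5 fell, Ttr with a fold of 0.63 (adjusted p = 9.72e-07) and Irx2 with a fold of 0.79 (adjusted p = 0.0457) in the authors' deposited table. Delta and PP cell markers made up 0.632% in pregnant and 0.765% in nonpregnant islets, and 1 of 3 fell, Hhex, with a fold of 0.69 by the authors' deposited table (adjusted p = 0.000142). The part of these islet cell markers in the values of the serotonin genes was not tested. Mast cells, which use Tph1 in mice, had 0 of 6 measured markers past the threshold in the authors' deposited table, with Hdc, described above, among the 6. Kit, the most abundant of the 6, had an authors' mean of 787 reads in pregnant and 631 reads in nonpregnant islets. Its fold was 1.28 by the authors' deposited table (adjusted p = 0.487). Their protease genes were near 0, with an authors' mean of 5 reads in pregnant and 0 in nonpregnant islets for Cpa3, 5 in pregnant and 1 in nonpregnant islets for Cma1, and 2 in each group for Tpsb2. Platelet and megakaryocyte markers summed to 223 reads in pregnant and 288 reads in nonpregnant islets over 6 genes, and none passed in the authors' deposited table (0 of 6). The 4 measured markers of enterochromaffin cells, the serotonin cells of the gut, summed to 862 reads in pregnant and 776 in nonpregnant islets, and 0 of 4 passed in the authors' deposited table. Of these, Fev gave 608 reads in pregnant and 667 in nonpregnant islets, and Tac1 gave 194 reads in pregnant and 53 in nonpregnant islets, with a fold of 3.75 by the authors' deposited table (p = 0.0237, adjusted p = 0.135). Acinar markers, from the exocrine pancreas around islets, were higher in 15 of 16 measured genes in the authors' deposited table and made up 1.40% of all authors' mean reads in pregnant and 0.100% in nonpregnant islets, with Amy2a5 listed at 0 in nonpregnant islets. The part of the acinar share in the values of the serotonin genes was not tested. Of 5 duct cell markers 1 was higher, Muc1, with a fold of 2.64 by the authors' deposited table (adjusted p = 0.0216).

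**Figure D5:**
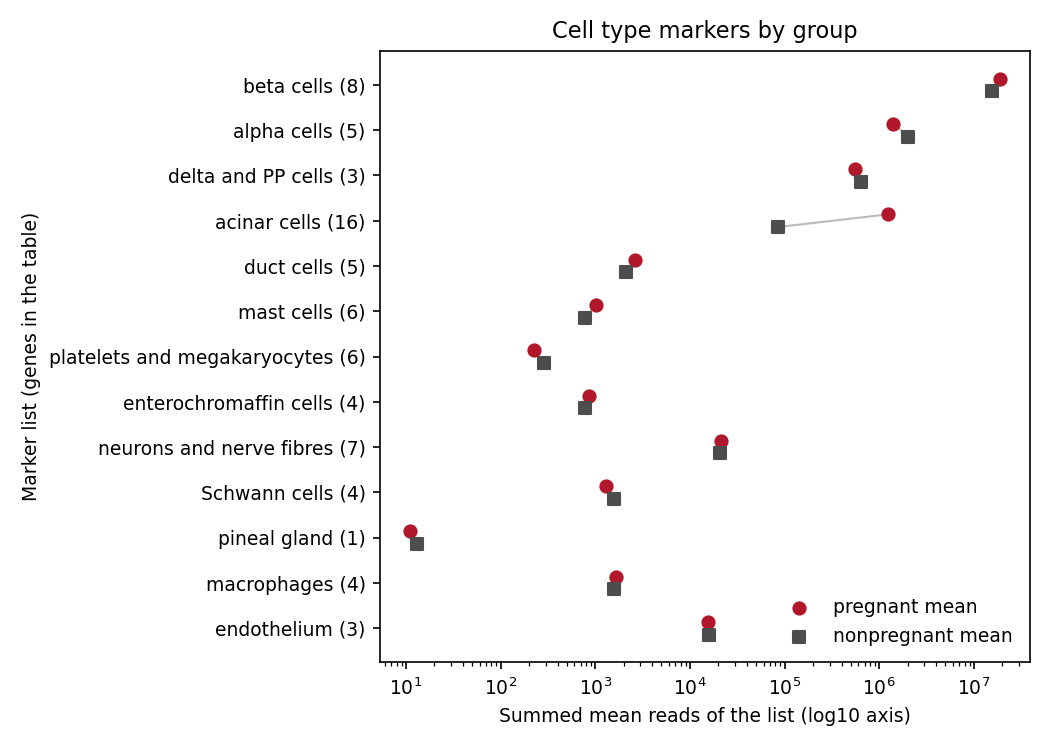
Summed authors' mean reads of the marker genes of each cell type on a log10 axis, with red circles for pregnant and grey squares for nonpregnant islets, 1 mean per group and no error; the number of genes found in the table stands in brackets. The acinar sums lie farthest apart, at 1225436 reads in pregnant and 84828 reads in nonpregnant islets, while mast cell and platelet sums lie close together.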

How the data were processed

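Islet RNA in 3 samples from pregnant and 3 from nonpregnant mice was sequenced after a TruSeq transcriptome preparation, per the labels' protocols, and samples were grouped by their descriptions. The submitters' processing notes name HTSeq 0.5.3p3, TopHat2 2.0.12, Bowtie and TopHat, and the mouse build GRCm38. The authors deposited, per the file headers, a mean read count per gene and group, a fold change (linear ratio, pregnant over nonpregnant), its log2 ratio, a p-value and an adjusted p-value. Their test, the strand setting and any scaling before averaging are not given in the sources used here. Nothing in the labels says that the samples came from separate animals, so the spread behind the authors' p-values may be technical. Neither the depth of single libraries nor their spread was analysed here. The table had 19963 lines for 19940 genes; 21 genes stood on more than 1 line and were counted once.

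The members and lists were chosen with earlier results of these data known, and lists are given as counts and medians with no set test. The named genes were all 10 members and, from each list, genes past the threshold (up to 6, smallest p) and the 2 with the most reads; others were named after their values were seen. Some genes of these lists are not reported here. Genes were called by the authors' adjusted p under 0.05, which recomputed Benjamini-Hochberg values matched within 0.00203. Exon lengths (union of exons) came from GENCODE M21, which held 19265 of the genes (96.6%). A planned protein comparison was not made here, and shared runs of annotated transcripts were used instead. The adjustment and motif search were tested on simulated data. Python 3.11.15 with pandas 2.3.3, numpy 2.4.6, scipy 1.17.1 and matplotlib 3.10.9 was used. Alternatives were a filter on low means, pseudocounts of 0.5 and 5, 3 scalings, a threshold of 0.01 and transcript length.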

Additional observations from a re-analysis of the deposited data

How the results depend on the processing

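Over 7 alternatives, 69 of 70 log2 ratios of the 10 genes kept their direction and their side of the threshold; the exception was Ddc, which did not pass at an adjusted p under 0.01 (0.0194). The log2 ratio ranged from 10.47 to 10.95 for Tph1, 3.07 to 3.18 for Tph2, 0.70 to 0.80 for Slc18a1 and 0.24 to 0.34 for Ddc, and from 1.49 to 2.36 for Slc6a4, which is lowest with a pseudocount of 5. Other pseudocounts and scalings recomputed the ratio and kept the authors' adjusted p, so they could not move a gene across the threshold. Only the filter on low means and the threshold of 0.01 could do so. The median log2 ratio of the 10 genes was 0.29 as deposited, 0.20 with scaling to total mean reads, 0.30 with scaling to a median log2 ratio of 0, and 0.28 with scaling to the total without acinar genes, insulin genes and Tph1. Scaling to total mean reads moved the median ratio over genes of the authors' deposited table by -0.09 and left Qdpr at 0.002. At an adjusted p under 0.01, 3 of the 10 genes were higher, and of the genes in the 10 lists 1 was higher and 1 lower in place of 2 and 3. With the adjustment recomputed over genes with at least 10 mean reads, 3 were higher and 3 lower, since Hdc passed (0.0419). With the length of the longest transcript in place of the exon union, the level of Tph1 over Tph2 in pregnant islets was 4.95 in place of 4.01, and Tph1 kept places 3 in pregnant and 9 in nonpregnant islets. Refits without single replicates were not run because the table holds group means. No paired analysis was possible because the table has no values per sample. Small means limit what is seen for Slc6a4 and the serotonin receptors.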

Other observations

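A pair of genes known from noradrenaline-making cells had much lower means in pregnant than in nonpregnant islets without passing the authors' test, an observation chosen after the values were seen. Slc6a2, the noradrenaline transporter, had an authors' mean of 6 reads in pregnant islets and 297 reads in nonpregnant islets. Dbh, which turns dopamine into noradrenaline, had an authors' mean of 5 reads in pregnant islets and 149 reads in nonpregnant islets. They were the only 2 of 19940 genes with a log2 ratio of -4 or below and at least 100 nonpregnant mean reads, at -5.39 for Slc6a2 and -4.54 for Dbh in the authors' deposited table. Th, the tyrosine hydroxylase of the same cells, had an authors' mean of 2544 reads in pregnant and 2446 reads in nonpregnant islets, a fold of 1.06 in the authors' deposited table. Neither passed the authors' test (adjusted p = 0.477 and 0.488 in the authors' deposited table), whereas all 32 genes with a log2 ratio of 4 or above and at least 100 pregnant mean reads passed. Slc18a2, the neuronal vesicular transporter described above, had 144 reads in pregnant islets and 233 in nonpregnant islets and did not pass (adjusted p = 0.18 in the authors' deposited table). Which cells the reads of Slc6a2, Dbh and Slc18a2 came from was not tested. Values per sample were not analysed here.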
